A study of Rattus norvegicus with 8 samples.

Results

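The antiviral interferon effector genes described here are Mx1, Mx2, Ifit3, Rsad2, Isg15, Oasl, Oas1a, Ddx60, Ifi27l2b and Ly6e. They were found as the probe sets annotated to exactly 1 of these symbols, and each gene was read from its brightest probe set. All 10 were found, on 12 probe sets, and all 10 passed the filter on dim probe sets, among 14217 genes with a probe set and 11372 genes past that filter. No measured value entered the choice of probe set other than the mean brightness over all arrays, but the genes themselves were listed with earlier results of these data known.

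RNA was measured on 8 Affymetrix arrays in vascular smooth muscle cells, the contractile cells of the artery wall. The cells were freed by enzymes from thoracic aortas of Sprague-Dawley rats, all male, and grown for 2 passages in M199 medium with 10% serum. All 4 groups were transfected with an siRNA for 48 h, so no group is untransfected: siNTC is a non-targeting control, and siGiver is an siRNA against Giver, a long noncoding RNA of vascular cells. In each siRNA arm, 2 arrays came from cells given 100 nM angiotensin II (Ang II), the vasoconstrictor peptide hormone, for 3 h, and 2 from cells given phosphate-buffered saline (PBS). By their labels, the siNTC PBS, siNTC Ang II, siGiver PBS and siGiver Ang II groups differ only in siRNA and treatment. The design asks how the early response to Ang II depends on Giver. Whether arrays of 1 group stem from separate cultures or animals is not said in the labels, so the p-values reflect the spread among these arrays alone, and that spread may be technical. Giver has no annotated probe set, and its knockdown was not analysed here.

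Interferons are secreted proteins that cells release after sensing foreign nucleic acid. They bind receptors on the same or neighbouring cells, and Janus kinases then activate a complex holding Stat2 and Irf9 that binds interferon-stimulated response elements (ISREs) in the promoters of its target genes. Interferon regulatory factors such as Irf7 and Irf1 bind related elements. The target genes include effectors that block virus entry, replication or release, and smooth muscle cells, like most cell types, can express them.

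The promoters are shown because an ISRE is the DNA element through which this pathway is known to act. RefSeq promoter sequences (GRCr8) were matched for 6 of the 10 genes: Mx1, Ifit3, Rsad2, Oasl, Oas1a and Ddx60. Mx2, Isg15, Ifi27l2b and Ly6e were not matched. The window searched ran from 250 bases before to 50 bases after the annotated start, for the ISRE core GAAANNGAAA on both strands. The core was found in 4 of the 6 windows, and in 1312 of all 33469 promoters of that length (3.92%). Among genes tested on the arrays it was found in 2.99% of promoters, and among other antiviral effectors tested in 20 of 35 (57.1%). The 250 bases before the start of the 4 genes with a match are printed 5′ to 3′ on the gene's strand, with the core in capitals. They lie at chr1:241527076-241527325 on the plus strand (Ifit3), chr6:48788121-48788370 on the minus strand (Rsad2), chr12:41330216-41330465 on the plus strand (Oas1a) and chr16:33208840-33209089 on the minus strand (Ddx60).
Ifit3: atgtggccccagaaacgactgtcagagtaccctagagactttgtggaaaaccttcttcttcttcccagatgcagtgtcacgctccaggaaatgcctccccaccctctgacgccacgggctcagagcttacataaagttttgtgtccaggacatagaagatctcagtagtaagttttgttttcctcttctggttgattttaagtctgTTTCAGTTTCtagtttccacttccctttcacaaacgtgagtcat
Rsad2: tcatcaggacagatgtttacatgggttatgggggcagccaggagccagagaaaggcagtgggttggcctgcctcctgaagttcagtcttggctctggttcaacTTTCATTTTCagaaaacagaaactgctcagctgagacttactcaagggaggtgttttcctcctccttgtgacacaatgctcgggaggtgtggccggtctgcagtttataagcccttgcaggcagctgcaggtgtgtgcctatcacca
Oas1a: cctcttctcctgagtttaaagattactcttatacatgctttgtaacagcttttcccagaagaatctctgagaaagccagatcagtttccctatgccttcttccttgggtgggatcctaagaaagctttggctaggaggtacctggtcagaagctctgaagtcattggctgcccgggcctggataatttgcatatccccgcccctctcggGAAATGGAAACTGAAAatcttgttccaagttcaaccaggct
Ddx60: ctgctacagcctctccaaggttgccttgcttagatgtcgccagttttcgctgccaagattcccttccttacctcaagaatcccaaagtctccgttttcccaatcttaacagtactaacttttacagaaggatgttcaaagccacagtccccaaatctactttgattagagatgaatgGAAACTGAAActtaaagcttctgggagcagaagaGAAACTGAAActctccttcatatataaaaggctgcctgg

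In the Ifit3 sequence the core lies 35 to 44 bases before the start and is read on the opposite strand, TTTCAGTTTC. In Rsad2 it is 138 to 147 bases before the start, TTTCATTTTC, also on the opposite strand. Oas1a holds GAAATGGAAA and GAAACTGAAA, which share 4 bases and together span 26 to 41 bases before the start. Ddx60 holds GAAACTGAAA in 2 places, 30 to 39 and 64 to 73 bases before the start. Starts are annotation: RefSeq extends the gene 125 bases further upstream than the start used for Rsad2, 43 bases for Oas1a, 93 for Mx1 and 217 for Oasl. The windows of Mx1 and Oasl hold no match to these letters. The core of the gamma-activated site, TTCNNNGAA, was found in 1 of the 6 windows, 191 to 199 bases before the start of Oas1a, and in 8.87% of all promoters. A match is a description of the letters, not a measured binding site.

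In siNTC cells, Ang II raised all 10 genes within 3 h, from 1.33-fold for Mx2 to 3.41-fold for Mx1. In siGiver cells, the same treatment raised 1 of them, Oasl by 1.26-fold, and lowered 2, Mx1 and Ifi27l2b. The difference between these responses, tested for each gene as an interaction, passed for all 10. Values are the deposited log2 values of 1 probe set, so a difference of 1 is a doubling, and levels are compared between groups within a gene, never between genes. Errors are standard errors (SE) of a limma fit to all 8 arrays, and a gene is called changed at a Benjamini-Hochberg adjusted p under 0.05 over the 11372 genes.

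**Figure D1:**
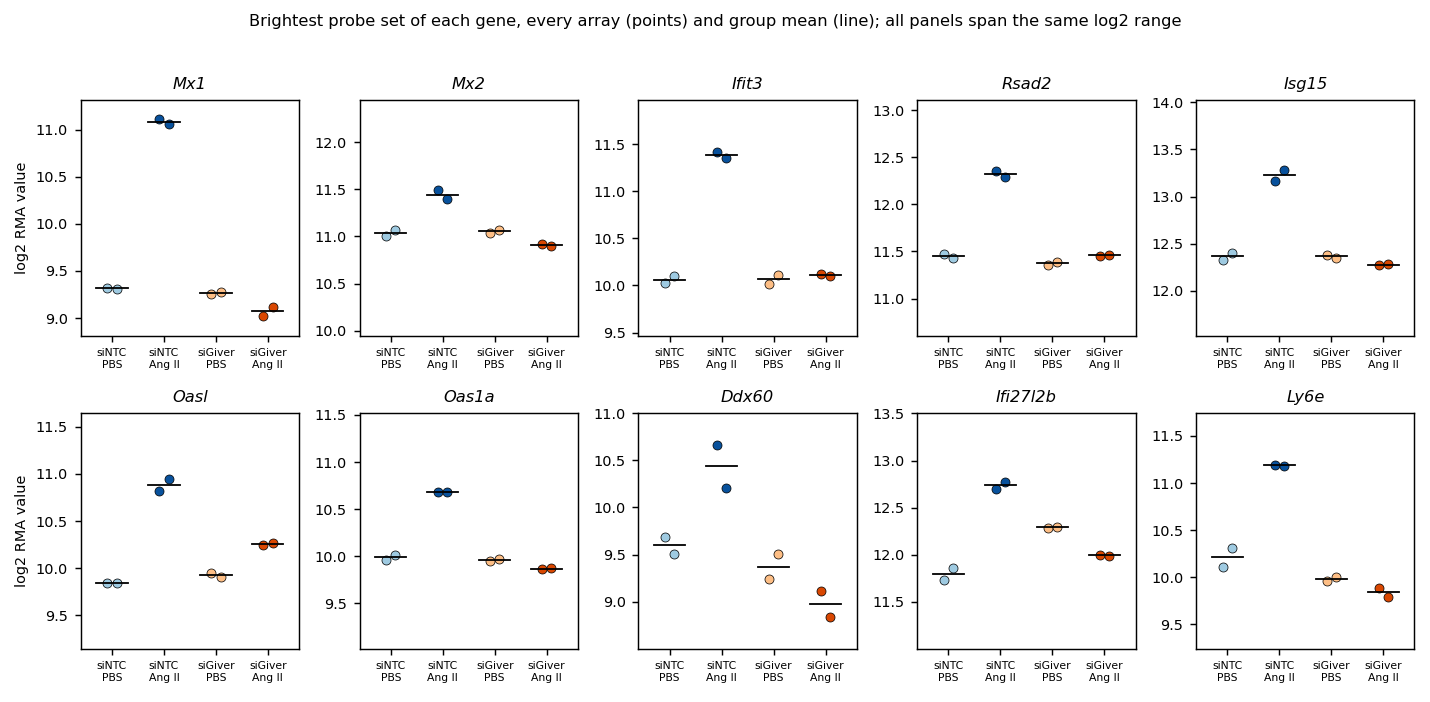
Deposited log2 RMA value (vertical axis) of the brightest probe set of each of the 10 genes on every array (points, 2 per group) with the group mean (line), by siRNA and treatment. In every panel the siNTC Ang II arrays lie above all 6 other arrays. The share of all genes with this pattern was not counted.

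Mx1 and Mx2 encode dynamin-like GTPases that trap viral nucleocapsids, and they lie close together on the same rat chromosome with Fam3b between them. Mx1 read 9.32 and 9.31 log2 on the siNTC PBS arrays, 11.11 and 11.06 with siNTC and Ang II, 9.25 and 9.28 with siGiver and PBS, and 9.02 and 9.12 with siGiver and Ang II. The siNTC Ang II arrays stood apart above the other 6, and the siGiver Ang II arrays were the lowest of all. Ang II raised Mx1 by 1.77 ± 0.050 log2 in siNTC cells (adjusted p 1.33e-05), the second largest rise of any gene tested. In siGiver cells it lowered Mx1 by a log2 difference of -0.19 ± 0.050 (adjusted p 0.0371). That small fall lost its call when any 1 of the 8 arrays was left out (-0.15 to -0.24, adjusted p 0.0537 to 0.177), and the rise in siNTC cells did not. The interaction of Mx1, -1.96 ± 0.070 log2 (adjusted p 8.12e-05), was the largest in size of all 11372 genes in either direction.

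Mx2 read 11.01 and 11.06 log2 in siNTC PBS, 11.49 and 11.40 in siNTC Ang II, 11.04 and 11.07 in siGiver PBS, and 10.92 and 10.90 in siGiver Ang II. As for Mx1, the siNTC Ang II arrays were the highest and the siGiver Ang II arrays the lowest. Unlike for Mx1, the arrays of the PBS groups overlapped. Its rise in siNTC cells, 0.41 ± 0.050 log2 (adjusted p 0.00441), was the smallest of the 10, and its interaction was -0.55 ± 0.071 log2 (adjusted p 0.00558). In siGiver cells the difference of -0.14 ± 0.050 log2 did not pass (adjusted p 0.0948). A second Mx2 probe set read 3.09 to 3.34 log2 on all arrays, below the filter at 4.81, and gives no check of the first.

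Oas1a and Oasl belong to the 2′-5′ oligoadenylate synthetase family. Oas1a makes the messenger that switches on RNase L when it meets double-stranded RNA, and Oasl proteins act in antiviral RNA sensing. Oas1a read 9.96 and 10.02 log2 in siNTC PBS, 10.68 on both siNTC Ang II arrays, 9.95 and 9.97 in siGiver PBS, and 9.86 and 9.88 in siGiver Ang II. It rose by 0.69 ± 0.043 log2 in siNTC cells (adjusted p 0.000195), differed by -0.09 ± 0.043 in siGiver cells (adjusted p 0.189), and had an interaction of -0.78 ± 0.061 (adjusted p 0.000675). The rat genome holds close Oas1 copies, so reads of this probe set may include RNA of a relative.

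Oasl was the only one of the 10 called higher with Ang II in siGiver cells. It read 9.85 on both siNTC PBS arrays, 10.82 and 10.95 log2 in siNTC Ang II, 9.95 and 9.90 in siGiver PBS, and 10.24 and 10.26 in siGiver Ang II. No 2 groups overlapped, and both Ang II groups lay above both PBS groups. The rise was 1.04 ± 0.054 log2 in siNTC cells (adjusted p 0.000116) and 0.33 ± 0.054 in siGiver cells (adjusted p 0.0068). Its interaction, -0.71 ± 0.076 log2 (adjusted p 0.0027), was the second smallest of the 10 in size, after that of Mx2.

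Ifit3 is part of a complex with other Ifit proteins that binds viral RNA lacking host cap methylation. It read 10.02 and 10.10 log2 in siNTC PBS, 11.41 and 11.35 in siNTC Ang II, 10.02 and 10.11 in siGiver PBS, and 10.12 and 10.10 in siGiver Ang II. The other 6 arrays spanned 10.02 to 10.12, and the siNTC Ang II arrays lay above them by more than a doubling. Ang II raised it by 1.32 ± 0.054 log2 in siNTC cells (adjusted p 5.26e-05). In siGiver cells the difference was 0.04 ± 0.054 log2, with a 95% interval of -0.08 to 0.17 (adjusted p 0.629). Its interaction was -1.28 ± 0.076 log2 (adjusted p 0.000348).

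Ddx60 encodes a helicase that promotes RNA sensing by RIG-I-like receptors, and it had the widest spread between arrays of a group. It read 9.69 and 9.51 log2 in siNTC PBS, 10.67 and 10.21 in siNTC Ang II, 9.24 and 9.51 in siGiver PBS, and 9.11 and 8.84 in siGiver Ang II. The siNTC Ang II arrays were still the highest, and the siGiver Ang II arrays the lowest. It rose by 0.84 ± 0.17 log2 in siNTC cells (adjusted p 0.0282), differed by -0.40 ± 0.17 in siGiver cells (adjusted p 0.142), and had an interaction of -1.24 ± 0.23 (adjusted p 0.0234). The rise was not called without siNTC PBS replicate 1 (0.93, adjusted p 0.107), siNTC PBS replicate 2 (0.75, adjusted p 0.128) or siNTC Ang II replicate 1 (0.61, adjusted p 0.1001), nor without the filter (adjusted p 0.0542) or with trended and robust moderation (adjusted p 0.0822). The interaction was not called without any 1 of siNTC PBS replicates 1 and 2, siNTC Ang II replicate 1, siGiver PBS replicate 2 and siGiver Ang II replicate 2 (-1.01 to -1.33 log2, adjusted p 0.0508 to 0.0873), nor with that moderation (adjusted p 0.0747).

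Rsad2 encodes viperin, an enzyme that makes a chain-terminating nucleotide against viral polymerases. It read 11.47 and 11.43 log2 in siNTC PBS, 12.35 and 12.29 in siNTC Ang II, 11.36 and 11.39 in siGiver PBS, and 11.46 on both siGiver Ang II arrays. It rose 1.83-fold in siNTC cells (0.87 ± 0.045 log2, adjusted p 0.000116), and its interaction was -0.79 ± 0.064 (adjusted p 0.000824). In siGiver cells both Ang II arrays lay above both PBS arrays, but the difference of 0.09 ± 0.045 log2 did not pass (adjusted p 0.232).

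Isg15 encodes a ubiquitin-like protein that is attached to other proteins and also secreted. It read 12.32 and 12.41 log2 in siNTC PBS, 13.17 and 13.28 in siNTC Ang II, 12.38 and 12.35 in siGiver PBS, and 12.27 and 12.28 in siGiver Ang II. It rose by 0.86 ± 0.055 log2 in siNTC cells (adjusted p 0.000207), with a difference of -0.09 ± 0.055 in siGiver cells (adjusted p 0.307) and an interaction of -0.95 ± 0.078 (adjusted p 0.000824). Uba7, the enzyme that activates Isg15 for attachment, rose by 0.58 ± 0.056 log2 in siNTC cells (adjusted p 0.00154), and its interaction was -0.69 ± 0.079 (adjusted p 0.00359). Usp18, which removes Isg15 and restrains the interferon receptor, rose by 0.66 ± 0.044 log2 (adjusted p 0.000247), and its interaction was -0.58 ± 0.063 (adjusted p 0.00268).

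Ifi27l2b, a small hydrophobic membrane protein of the Ifi27 family, was the only one of the 10 called higher in siGiver than in siNTC cells under PBS. It read 11.73 and 11.86 log2 in siNTC PBS, 12.70 and 12.78 in siNTC Ang II, 12.29 and 12.30 in siGiver PBS, and 12.00 and 11.99 in siGiver Ang II. No 2 groups overlapped, and both siGiver groups lay between the siNTC groups. Giver siRNA raised it by 0.50 ± 0.055 log2 in PBS (adjusted p 0.000489) and lowered it by a difference of -0.74 ± 0.055 under Ang II (adjusted p 5.69e-05). Ang II raised it by 0.94 ± 0.055 log2 in siNTC cells (adjusted p 0.000179) and lowered it in siGiver cells (-0.30 ± 0.055, adjusted p 0.0119), and its interaction was -1.24 ± 0.078 (adjusted p 0.000365). The fall in siGiver cells lost its call without any 1 of the 4 siGiver arrays (-0.29 to -0.30 log2, adjusted p 0.0523 to 0.0637).

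Ly6e, a lipid-anchored surface protein that restricts the fusion of some viruses, read 10.11 and 10.31 log2 in siNTC PBS, 11.20 and 11.18 in siNTC Ang II, 9.96 and 10.01 in siGiver PBS, and 9.89 and 9.79 in siGiver Ang II. It rose by 0.98 ± 0.071 log2 in siNTC cells (adjusted p 0.000328), differed by -0.14 ± 0.071 in siGiver cells (adjusted p 0.209), and had an interaction of -1.12 ± 0.10 (adjusted p 0.00114). Under PBS it was lower in siGiver cells (-0.23 ± 0.071 log2, adjusted p 0.0403). That call was lost without siNTC PBS replicate 2 (-0.13, adjusted p 0.182), either siNTC Ang II array (adjusted p 0.0604), siGiver PBS replicate 1 (-0.20, adjusted p 0.158) or siGiver PBS replicate 2 (-0.25, adjusted p 0.0870). The dimmer Ly6e probe set read 5.67 and 6.04 log2 in siNTC PBS, 6.41 and 6.35 in siNTC Ang II, 5.94 and 6.03 in siGiver PBS, and 6.01 and 5.58 in siGiver Ang II. Its order of group means differed under PBS, where siGiver was higher by 0.13 ± 0.16 log2 (adjusted p 0.588 over all probe sets). On it the rise with Ang II in siNTC cells (0.52 ± 0.16, adjusted p 0.112) and the interaction (-0.71 ± 0.22, adjusted p 0.132) did not pass, while the lower level under Ang II in siGiver cells did (-0.59 ± 0.16, adjusted p 0.0207).

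**Figure D2:**
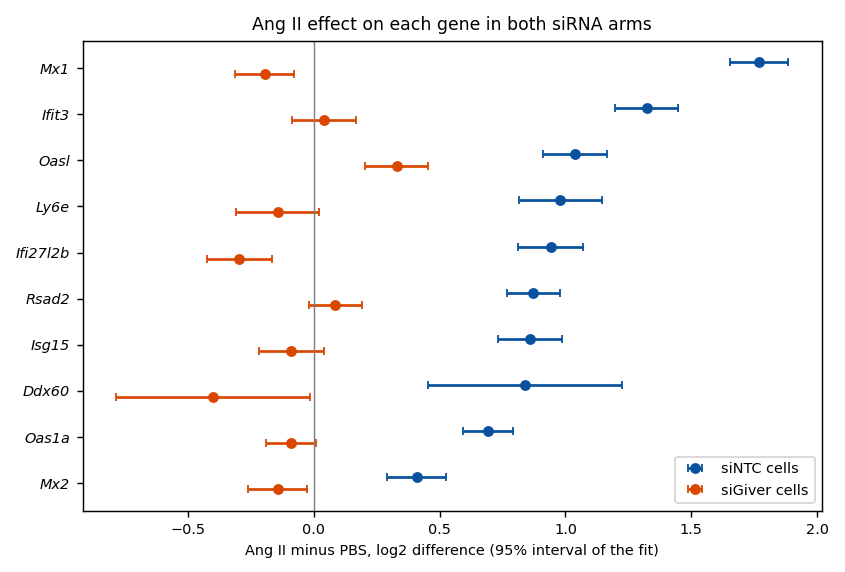
Ang II minus PBS as a log2 difference (horizontal axis) for each of the 10 genes, in siNTC cells and in siGiver cells, with the 95% interval of the fit. The siNTC values run from 0.41 (Mx2) to 1.77 (Mx1), and the siGiver values from -0.40 (Ddx60) to 0.33 (Oasl).

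As a group in siNTC cells, 10 of 10 genes were called higher with Ang II, against a background of 3.97% of all genes tested. On all 10 the Ang II arrays lay above the PBS arrays with no overlap, as they did for 28.2% of all genes. Their median difference was 0.91 log2, beside 0.0059 for all genes. By size the order was Mx1, Ifit3, Oasl, Ly6e, Ifi27l2b, Rsad2, Isg15, Ddx60, Oas1a and Mx2. The 95% intervals of Mx1 (1.65 to 1.88) and Ifit3 (1.20 to 1.45) did not overlap each other or that of any gene further down, except that the interval of Ddx60 (0.46 to 1.23) reached into that of Ifit3. From Oasl to Oas1a, each gene's interval overlapped that of the next in this order, and those of Oas1a (0.59 to 0.79) and Mx2 (0.29 to 0.53) did not overlap. In siGiver cells, 1 of 10 was called higher (background 9.12%) and 2 of 10 lower (background 7.19%), with a median difference of -0.12 log2 beside -0.028 for all genes. These shares are near the background or too small to read. The arrays of the Ang II and PBS groups did not overlap for 9 of the 10 genes in siGiver cells, 2 of them higher (26.7% of all genes) and 7 lower (35.7% of all genes), with Ifit3 the exception.

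**Figure D3:**
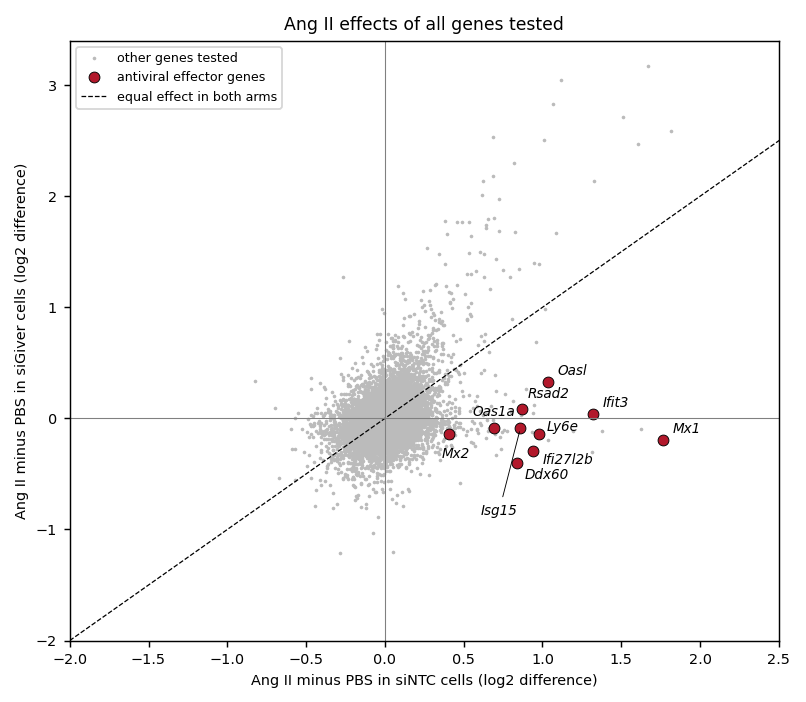
Ang II minus PBS in siNTC cells (horizontal axis, log2) against Ang II minus PBS in siGiver cells (vertical axis, log2) for the 11372 genes tested, with the 10 antiviral genes marked; the dashed line marks equal effects, and the axes share no array. The antiviral genes lie at 0.41 or more on the horizontal axis and between -0.40 and 0.33 on the vertical axis.

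Under PBS, the siRNA arms differed in 2 of the 10 genes. Ifi27l2b was called higher in siGiver cells, where 16.0% of all genes were, and Ly6e lower, where 19.1% of all genes were, so a count of 1 in each direction does not exceed the background. For Isg15 the difference was 0.0004 log2 with a 95% interval of -0.13 to 0.13, and for Ifit3 0.0046 with an interval of -0.12 to 0.13. The median of the 10 was -0.015 log2, beside -0.0047 for all genes. Under Ang II, all 10 were called lower in siGiver than in siNTC cells, against 24.8% of all genes. On all 10 the siGiver arrays lay below the siNTC arrays with no overlap, as they did for 40.7% of all genes. The median difference was -0.91 log2 beside -0.026 for all genes. It ranged from -0.53 ± 0.050 for Mx2 (1.45-fold lower, adjusted p 0.000154) to -2.01 ± 0.050 for Mx1 (4.04-fold lower, adjusted p 1.85e-06). Ddx60 was 2.76-fold, Ly6e 2.55-fold and Ifit3 2.42-fold lower.

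The interaction, the effect of Ang II with siGiver less its effect with siNTC, was called lower for 10 of 10 genes, against 2.87% of all genes, with a median of -1.03 log2 beside -0.022 for all genes. It shares arrays with each of the other 4 comparisons, so these counts are not separate lines of evidence. The effects of Ang II in the 2 arms share no array. Because the samples are bulk RNA, fewer cells expressing a gene and less RNA per cell cannot be told apart.

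The other genes of the interferon pathway were described from 4 lists, whose counts stand against the same backgrounds over all genes: 3.97% called higher with Ang II in siNTC cells, 9.12% higher and 7.19% lower in siGiver cells, and 2.87% with a lower interaction. Of the interferon ligands and receptors, 7 of 9 with a probe set were tested. Ang II raised 1 of them in siNTC cells, Il10rb, a subunit of the interferon lambda receptor, by 0.21 ± 0.046 log2 (adjusted p 0.0418), a call that was lost without any 1 of the 8 arrays (adjusted p 0.0648 to 0.190). Its interaction, -0.30 ± 0.065 log2 (adjusted p 0.0402), was lost in the same way (adjusted p 0.0534 to 0.125). Ifnar1 and Ifnar2, the receptor chains of type I interferon, differed by 0.0059 ± 0.11 and 0.13 ± 0.069 log2 with Ang II in siNTC cells and were not called there (adjusted p 0.983 and 0.299). For siGiver less siNTC under Ang II, Ifnar1 (-0.30 ± 0.11, adjusted p 0.0621) and Ifnar2 (0.05 ± 0.069, adjusted p 0.609) did not pass. Ifnar1 was called there with a filter at the 50th percentile (adjusted p 0.0352), trended and robust moderation (0.0196) and a replicate block (0.0333). Il10rb (-0.63 ± 0.046, adjusted p 5.27e-05) and the receptor gene Ifnlr1 (-0.36 ± 0.065, adjusted p 0.00301) were called lower there.

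Ifnb1, which encodes interferon beta, was dim, with group means of 4.89 log2 in siNTC PBS, 5.29 in siNTC Ang II, 4.54 in siGiver PBS and 4.97 in siGiver Ang II. The siGiver PBS mean lies below the filter value of 4.81. Ifnb1 was lower in siGiver than in siNTC cells under PBS (-0.36 ± 0.10 log2, adjusted p 0.0285) and under Ang II (-0.32 ± 0.10, adjusted p 0.0367). The PBS call was lost without siNTC PBS replicate 1, siNTC PBS replicate 2 or siGiver PBS replicate 1 (-0.37 to -0.20 log2). Under Ang II the call was lost with no filter (adjusted p 0.0576), trended and robust moderation (0.0520), cyclic loess (0.0535) and a replicate block (0.0558). It was also lost without any 1 of 5 arrays (-0.33 to -0.23 log2). With Ang II, Ifnb1 was 0.40 ± 0.10 log2 higher in siNTC cells, which did not pass (adjusted p 0.0645), and it rose by 0.44 ± 0.10 in siGiver cells (adjusted p 0.0265). Its interaction, 0.04 ± 0.14 log2, did not pass (adjusted p 0.889). The call in siGiver cells was lost without siGiver PBS replicate 1 or either siGiver Ang II array (0.28 to 0.46 log2). A call in siNTC cells was gained on leaving out either siGiver PBS array (0.40 log2). With only the groups compared, the rise was called in siNTC cells (adjusted p 0.0379) and not in siGiver cells (adjusted p 0.0694).

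Of 16 signalling genes, 4 rose with Ang II in siNTC cells, and the interaction was lower for the same number: Irf7, Usp18, Stat2 and Irf1. Irf7, a factor that amplifies interferon output, read 12.23 and 12.20 log2 in siNTC PBS, 12.91 and 12.98 in siNTC Ang II, 12.28 and 12.26 in siGiver PBS, and 12.09 and 12.11 in siGiver Ang II. Its rise was 0.73 ± 0.045 log2 (adjusted p 0.000195) and its interaction -0.90 ± 0.064 (adjusted p 0.000579). Stat2, a subunit of the ISRE-binding complex, rose by 0.48 ± 0.046 log2 (adjusted p 0.00156) with an interaction of -0.56 ± 0.065 (adjusted p 0.00392). Irf9, the DNA-binding subunit of that complex, differed by 0.18 ± 0.077 log2 (adjusted p 0.210), and its interaction was -0.21 ± 0.11 (adjusted p 0.313). For siGiver less siNTC, the brightest probe sets gave no call for Stat2 under PBS (0.04, adjusted p 0.537) or Irf9 under Ang II (-0.10, adjusted p 0.319). With the probe sets of each gene averaged, both were called lower there (-0.21, adjusted p 0.0090, and -0.21, adjusted p 0.0224). Irf1 rose by 0.40 ± 0.047 log2 (adjusted p 0.00391), and its interaction of -0.41 ± 0.067 (adjusted p 0.0135) was lost without siNTC PBS replicate 1, siNTC Ang II replicate 2, siGiver PBS replicate 1 or siGiver Ang II replicate 2 (adjusted p 0.0511 to 0.0545).

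Of 9 genes that sense RNA or DNA, 4 rose with Ang II in siNTC cells, and 2 had a lower interaction. These counts depended on the setting. With trended and robust moderation 6 rose and 6 had a lower interaction, and with a filter at the 50th percentile 6 and 5. With no filter 1 had a lower interaction. Zbp1, a sensor of Z-form nucleic acid, rose by 1.38 ± 0.087 log2 (adjusted p 0.000195), with an interaction of -1.50 ± 0.12 (adjusted p 0.000824). Ifih1, the double-stranded RNA sensor MDA5, read 8.52 and 8.64 log2 in siNTC PBS, 9.13 and 9.25 in siNTC Ang II, 8.46 and 8.47 in siGiver PBS, and 8.87 and 8.88 in siGiver Ang II. Both Ang II groups lay above both PBS groups. It rose by 0.61 ± 0.059 log2 in siNTC cells (adjusted p 0.00154) and by 0.41 ± 0.059 in siGiver cells (adjusted p 0.00371), and its interaction of -0.20 ± 0.083 did not pass (adjusted p 0.197). Dhx58, the helicase LGP2, rose by 0.51 ± 0.094 log2 in siNTC cells (adjusted p 0.0218) with an interaction of -0.66 ± 0.13 (adjusted p 0.0298). That interaction was called without siNTC PBS replicate 2 but not without any 1 of the other 7 arrays (adjusted p 0.0545 to 0.0965). The rise was lost without siNTC PBS replicate 1, siNTC Ang II replicate 1 or siNTC Ang II replicate 2 (adjusted p 0.0782 to 0.107).

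Among 39 other antiviral effectors and interferon targets tested, 29 rose with Ang II in siNTC cells, 2 rose and 6 fell in siGiver cells, and 30 had a lower interaction and none a higher one. The 2 of 39 that rose in siGiver cells are a smaller share than the 9.12% of all genes, and the 6 of 39 that fell a larger share than the 7.19%; neither difference was tested. The median of the list was 0.45 log2 in siNTC cells and -0.099 in siGiver cells, and -0.56 for the interaction. Under PBS, 13 of the 39 were called lower and 4 higher in siGiver than in siNTC cells, beside 19.1% and 16.0% of all genes. With no array left out, the number lower ran from 8 (only the groups compared) to 19 (trended and robust moderation). It fell below that range without siNTC PBS replicate 2. Also lower under PBS were 3 of 7 ligands and receptors, 3 of 16 signalling genes and 2 of 9 sensing genes, with none higher. Under Ang II, 34 of the 39 were called lower and 1 higher in siGiver than in siNTC cells. So were 24.8% of all genes lower, and 2219 of 11372 higher. Lower under Ang II were also 3 of 7 ligands and receptors, 5 of 16 signalling genes and 7 of 9 sensing genes, with none higher. Whether these shares exceed the background was not tested. The chemokine Cxcl11 rose by 1.62 ± 0.071 log2 in siNTC cells (adjusted p 5.8e-05), with an interaction of -1.72 ± 0.10 (adjusted p 0.000348). Cxcl9, another chemokine of this family, rose by 1.31 ± 0.071 log2 (adjusted p 0.000125), with an interaction of -1.61 ± 0.10 (adjusted p 0.000365). Its mean in siGiver Ang II was 4.71 log2, below the filter value. With Ang II in siGiver cells it fell (-0.30 ± 0.071 log2), a call lost with its probe sets averaged (-0.07, adjusted p 0.605). Rtp4 and Cmpk2 rose by 0.71 ± 0.046 and 0.94 ± 0.042 log2 (adjusted p 0.000218 and 6.15e-05), with interactions of -1.04 ± 0.065 and -0.90 ± 0.060 (adjusted p 0.000365 and 0.000466). The genes that rose in siGiver cells were Slfn2 (0.40 ± 0.045 log2, adjusted p 0.00134) and Cxcl10 (0.26 ± 0.044, adjusted p 0.00751), chosen for mention after their values were seen. Without 1 array, the count of 29 ranged from 22 (without siNTC PBS replicate 1) to 29, and the count of 30 from 21 (without the same array) to 28.

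**Figure D4:**
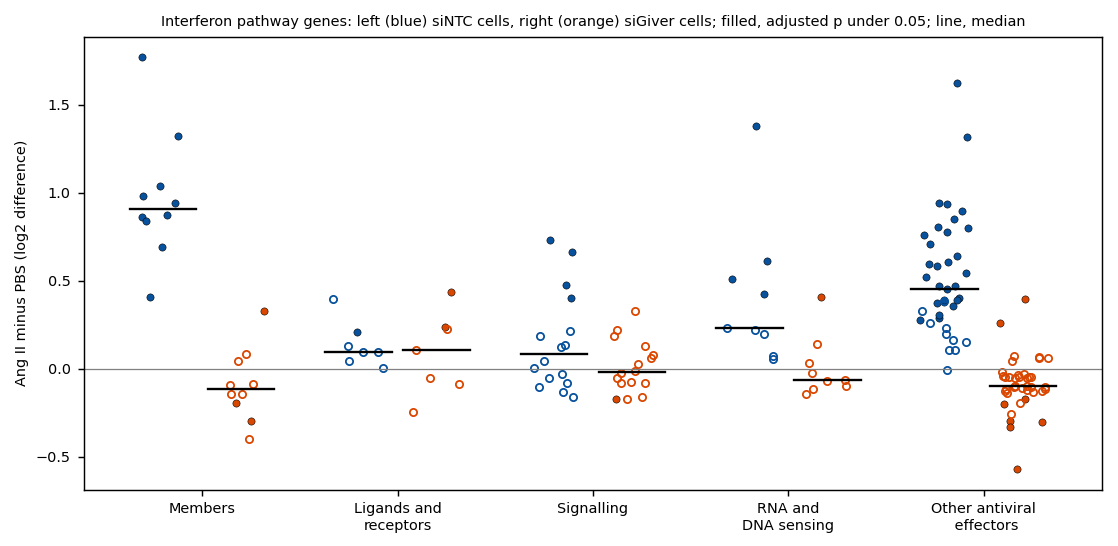
Ang II minus PBS (vertical axis, log2 difference) for the 10 antiviral genes and 4 lists of interferon pathway genes, with siNTC cells on the left of each pair and siGiver cells on the right. Filled points have an adjusted p under 0.05 and lines are medians, which in siNTC cells run from 0.084 for signalling to 0.91 for the antiviral genes.

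Among the 10 genes, each gene's profile over the 8 arrays correlated with the mean of the others at r = 0.997 for Mx1 and Oas1a, and at 0.84 for Ifi27l2b, 0.86 for Oasl and 0.88 for Ddx60, the lowest. The genes share arrays and groups, so these values describe likeness and carry no test. Averaged over the 10 genes after centring each, the arrays stood at -0.24 and -0.20 log2 in siNTC PBS, 0.77 and 0.73 in siNTC Ang II, -0.24 and -0.20 in siGiver PBS, and -0.30 and -0.32 in siGiver Ang II. Among 244 other genes whose group means spanned at least 1 log2, those most like this mean profile over the 8 arrays were Cxcl11 (r = 0.994), Zbp1 (0.981), Mpeg1 (0.980), Cyp27a1 (0.974), Isg20 (0.958), Usp18 (0.948), Il18bp (0.948) and Cxcl9 (0.934). Mpeg1, which encodes the pore-forming perforin-2, was 1.04 ± 0.089 log2 higher with Ang II in siNTC cells and differed by -0.20 ± 0.089 in siGiver cells. Cyp27a1, the mitochondrial sterol hydroxylase of bile acid synthesis, was 0.73 ± 0.046 log2 higher with Ang II in siNTC cells and lower by a difference of -0.28 ± 0.046 in siGiver cells. Il18bp, the secreted inhibitor of interleukin 18, was 0.66 ± 0.060 log2 higher in siNTC cells and differed by -0.09 ± 0.060 in siGiver cells. For the 8 genes most like the profile, siGiver less siNTC under PBS ran from -0.66 log2 (Cxcl9) to 0.12 (Mpeg1). It was positive only for Mpeg1.

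Markers of the labelled cell type were present: all 8 smooth muscle markers passed the filter, with a mean per array of 10.1 to 10.5 log2. Their summed log2 level was 80.8 to 81.5 in the siNTC groups and 83.6 to 84.2 in the siGiver groups. The 8 did not all move together. Under PBS, 6 were called higher and 1 lower in siGiver than in siNTC cells, beside 16.0% and 19.1% of all genes. Des had means of 7.97 log2 in siNTC PBS, 8.06 in siNTC Ang II, 7.58 in siGiver PBS and 7.64 in siGiver Ang II. Endothelial markers lay below the filter for 6 of 6, with sums of 22.4 to 23.3. Of 10 macrophage and dendritic markers, 5 passed, and Ptprc, Csf1r, Itgam, Adgre1 and Cd163 lay below the filter. Their sum was 49.2 to 49.8 in siNTC PBS, 49.7 to 49.9 in siNTC Ang II, 49.8 to 50.1 in siGiver PBS and 48.2 to 49.2 in siGiver Ang II. Among them Cd14 had a lower interaction (-0.40 ± 0.075 log2, adjusted p 0.0222). It was lost without any 1 of 6 of the 8 arrays (all but siNTC PBS replicate 2 and siNTC Ang II replicate 2). That of Irf8 went the other way (0.21 ± 0.077 log2) and did not pass (adjusted p 0.170). The lymphocyte markers, 1 of 4 past the filter, summed to 16.3 to 17.4. All 5 fibroblast markers passed, and their sum was lowest in siNTC Ang II, at 44.8 to 45.1, beside 46.4 to 46.7 in siNTC PBS, 47.1 in siGiver PBS and 46.4 in siGiver Ang II. Among these 5, 1 had a called higher interaction, Dcn. That call was lost without any 1 of 6 arrays (0.35 to 0.40 log2). The part of these differences in the antiviral genes' values was not tested.

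**Figure D5:**
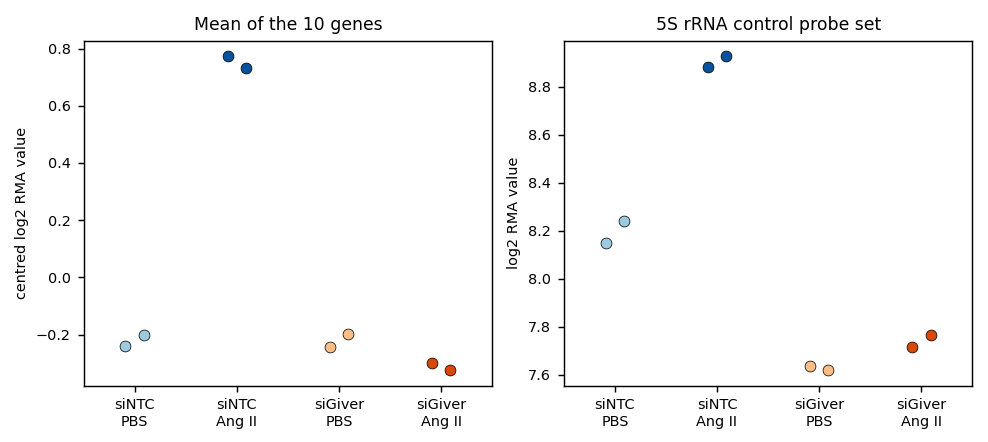
Mean of the 10 genes per array, centred log2 value (left), and log2 value of the 5S rRNA control probe set per array (right), by group. Both are highest in siNTC Ang II, while the 5S values also separate the PBS groups, which the gene mean does not.

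A control for 5S ribosomal RNA on the arrays also differed between the groups. It read 8.20 ± 0.067 log2 (SD, n = 2) in siNTC PBS, 8.90 ± 0.032 in siNTC Ang II, 7.63 ± 0.010 in siGiver PBS and 7.74 ± 0.037 in siGiver Ang II. Its part in the antiviral genes' result was not tested. The 3′ minus 5′ difference of the beta-actin control probe sets, a sign of RNA integrity, was 0.231 to 0.300 log2 on all arrays, and that of Gapdh was -0.155 to -0.0552. That of the Hexokinase control varied more, from 0.190 to 0.728 log2, with siGiver Ang II replicate 2 the highest. The level of the Gapdh control also differed between the siRNA arms. Its 3′ probe set had means of 12.50 log2 in siNTC PBS, 12.56 in siNTC Ang II, 13.14 in siGiver PBS and 13.12 in siGiver Ang II. Its part in the antiviral genes' values was not tested either. The 2 arrays of a group correlated at 0.998 over all probe sets, array medians lay between 6.15 and 6.19 log2, and arrays have no read depth, so their number limits the precision.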

How the data were processed

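RNA from 8 samples was measured on Affymetrix arrays. The deposited values, 1 per probe set and array, are on a log2 scale (2.06 to 14.6). The submitters' processing notes name RMA, which corrects background and normalizes between arrays, and Partek; no version of either is given in the sources used here. Per the labels, 5 ug of total RNA was labelled with biotin for each array.

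Of 31099 probe sets, 57 are controls, 20826 carry 1 symbol in GEO's platform annotation, 436 carry several and 9780 are not listed; 20758 matched a rat gene by identifier. Probe sets with a mean under the 30th percentile (4.81) were left out, and the brightest of each gene was kept (11372 genes). The arrays, 4 groups of 2 by label, were fitted together with 1 mean per group in limma 3.58.1 (R 4.3.3; 4 residual and 3.53 prior degrees of freedom). The 5 contrasts were the Ang II effect per siRNA, the siRNA effect per treatment, and the interaction, with Benjamini-Hochberg adjustment over all genes. The scripts were tested on simulated data. Replicate numbers were not used as pairs in the main fit. Differences between replicates 1 and 2 correlated over genes at -0.17 to 0.10 between groups. With 2 arrays a group, these values cannot tell whether the arrays were paired. No scan date was used, so batches were not tested.

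All 10 genes are named, with, per pathway list, up to 4 genes of smallest interaction p and some fixed components. The genes, lists and alternatives were chosen with earlier results of these data known. Alternatives were other filters, other uses of a gene's probe sets, trended and robust moderation, other scalings, a replicate block, only the groups compared, and leaving out each array.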

Additional observations from a re-analysis of the deposited data

Results flagged for a closer look

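The response to Ang II differed between the siRNA arms for all 10 genes, by the interaction test itself (limma, Benjamini-Hochberg adjusted p under 0.05 for each). In each case the effect in siGiver cells was lower than in siNTC cells. The log2 interactions were -1.96 for Mx1, -1.28 for Ifit3, -1.24 for Ddx60, -1.24 for Ifi27l2b and -1.12 for Ly6e. They were -0.95 for Isg15, -0.79 for Rsad2, -0.78 for Oas1a, -0.71 for Oasl and -0.55 for Mx2. Ddx60 is the gene whose interaction lost its call in some alternatives.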

How the results depend on the processing

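Over 17 alternatives, 795 of 840 values of single genes kept their direction and their side of the threshold, 37 lost a call, 1 gained one (Mx2 with Ang II in siGiver cells, trended and robust moderation, adjusted p 0.00927) and 7 changed sign, all of them uncalled. The number of the 10 genes called was 10 under Giver siRNA with Ang II in every alternative, and 9 or 10 with Ang II in siNTC cells and for the interaction, where the gene lost was Ddx60. Under PBS, 2 genes were called for the siRNA, but 1 with no filter, with probe sets averaged per gene, with every probe set on its own, with the replicate block and with only the groups compared. Without 1 array that count was 1 to 2, and the count in siGiver cells with Ang II, 3 with all arrays, was 1 to 2. The replicate block moved Mx1 in siGiver cells to an adjusted p of 0.0557 and Ly6e under PBS to 0.0565, and ended no other call of the 10 genes. The fall of Mx1 in siGiver cells also lost its call with no filter, with array medians subtracted and with only the groups compared. The mean of both Ly6e probe sets gave -0.05 log2 under PBS (adjusted p 0.759). Values that changed sign were the siRNA effect on Oas1a in PBS (0.0041 with cyclic loess) and 4 leave-one-out ranges: for the siRNA in PBS, Mx2 at -0.010 to 0.046, Ifit3 at -0.043 to 0.052 and Isg15 at -0.041 to 0.042, and for Ang II in siGiver cells, Ifit3 at -0.0061 to 0.089. Over all genes, 698 were called with Ang II in siNTC cells, 1072 with a filter at the 50th percentile, 1496 with trended and robust moderation, 420 with no filter, 422 with only those groups and 227 to 526 without 1 array; for the interaction these were 707, 1059, 1490 and 467, and 356 to 436 without 1 array. For Ang II in siGiver cells 1855 were called, 2802 with that moderation, 1215 with only those groups and 866 to 1741 without 1 array; subtracting array medians moved the split from 1037 higher and 818 lower to 1164 and 561. With 2 arrays a group, a lone array left in a group is assumed to vary like the others, and the causes of these changes were not tested.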
